A study of Arabidopsis thaliana with 11 samples.

Results

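The regions described here are the 1894 nuclear regions of Arabidopsis thaliana that were called as broad peaks for MBD5 and not for MBD6. They were taken from a deposited list of 10566 regions that joins the broad peaks of MBD5 with those of MBD6. Its parent column names the source of each region. On chromosomes 1 to 5 the list holds 10534 regions, of which 7229 have both parents (shared regions), 1894 have the MBD5 list alone (MBD5-only) and 1411 have the MBD6 list alone (MBD6-only). A further 32 MBD5-only regions lie on the mitochondrial genome and were left out of all comparisons. None of the libraries of the series is a parent, so the rule did not use their peaks. The class is defined by the lack of an MBD6 call, however, and 4 of the 8 library lists measure MBD6 again. Depth, controls and replicates of the parent lists were not given in the sources used here.

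Chromatin immunoprecipitation and sequencing was done on inflorescences of plants of ecotype Col0, grown on soil under long days (16 h light, 8 h dark). In batch 1, ACD15 with a 3XFLAG tag (transgene ACD15.5-3XFLAG) and ACD21 with the same tag (ACD21.4-3XFLAG) were each followed in 2 libraries from wild-type plants. In batch 2, MBD6 fused to RFP (MBD6-RFP) was followed in 2 libraries from wild-type plants and 2 from acd15 acd21 double mutants. The 3 remaining libraries, 1 in batch 1 and 2 in batch 2, carry no transgene and are not used here. The labels name neither the promoters of the transgenes nor the number of plant lines, and they do not say whether replicates are separate plants. P-values therefore measure only how these libraries vary, which may be technical. The antibody label reads anti-FLAG M2 for batch 2 as well. Tag and batch go together, so effects of batch and of tagged protein cannot be told apart between FLAG and RFP lists. The 8 peak lists held between 404 regions (MBD6-RFP in acd15 acd21, replicate 2) and 10946 regions (ACD15-FLAG replicate 2), and read depth is unknown from peak lists.

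MBD5 and MBD6 are closely related methyl-CG-binding proteins that recognise CG dinucleotides methylated on the cytosine. They silence a subset of methylated genes and transposons together with the J-domain protein SLN and with ACD15 and ACD21, small proteins of the alpha-crystallin family known from chaperones. In Arabidopsis, methylated CG sites are found in transposons and other repeats, in some promoters, and in the bodies of many transcribed genes.

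The sequences below show what kinds of sites the class holds. Each is the central part of a region, 300 bases of the plus strand of TAIR10, in lower case with every CG dinucleotide in capitals. AT1G75945 and LCR12 stand for the strongest members by ACD15 and ACD21, from chr1:28515439-28515738 and chr5:19830050-19830349. The stretch of AT1G75945 lies in and around an intron of an uncharacterized gene, holds 6 CG sites, and has them crowded at its left end. The stretch near LCR12 holds 18.
AT1G75945: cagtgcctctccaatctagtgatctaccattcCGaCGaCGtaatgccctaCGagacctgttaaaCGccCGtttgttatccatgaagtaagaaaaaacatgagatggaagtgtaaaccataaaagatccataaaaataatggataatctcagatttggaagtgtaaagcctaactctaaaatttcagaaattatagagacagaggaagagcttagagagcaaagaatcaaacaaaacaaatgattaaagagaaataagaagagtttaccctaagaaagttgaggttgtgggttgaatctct
LCR12: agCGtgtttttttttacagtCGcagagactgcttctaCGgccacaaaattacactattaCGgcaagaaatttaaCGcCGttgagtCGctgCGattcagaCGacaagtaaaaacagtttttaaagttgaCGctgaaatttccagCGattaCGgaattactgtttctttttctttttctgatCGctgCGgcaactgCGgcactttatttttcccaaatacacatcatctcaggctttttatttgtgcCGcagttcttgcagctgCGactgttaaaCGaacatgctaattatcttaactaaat
The region at AT1G47885, at chr1:17642018-17642317, was the one member with a peak in both wild type MBD6-RFP lists, and it holds 4 CG sites in the stretch shown. The region beside the pseudogene AT5G31685, at chr5:11656167-11656466, ranked high among members with an MBD6-RFP peak and holds 22.
AT1G47885: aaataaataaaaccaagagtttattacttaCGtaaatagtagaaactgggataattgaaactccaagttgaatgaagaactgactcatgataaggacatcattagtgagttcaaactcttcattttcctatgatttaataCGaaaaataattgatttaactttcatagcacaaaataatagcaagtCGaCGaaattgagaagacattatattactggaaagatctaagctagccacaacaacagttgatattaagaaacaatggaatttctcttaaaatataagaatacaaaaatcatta
AT5G31685: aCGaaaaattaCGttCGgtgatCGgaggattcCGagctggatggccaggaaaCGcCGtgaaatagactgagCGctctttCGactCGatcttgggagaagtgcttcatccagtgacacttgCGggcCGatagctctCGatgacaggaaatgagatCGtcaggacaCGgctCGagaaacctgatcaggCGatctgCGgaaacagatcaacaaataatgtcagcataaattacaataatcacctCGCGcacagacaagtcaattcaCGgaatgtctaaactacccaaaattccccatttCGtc
The regions in AT2G44140 and AT1G14890, at chr2:18254050-18254349 and chr1:5137286-5137585, had the densest CG among the members with no peak in any of the 8 lists. They hold 37 and 34 CG sites in coding exons.
AT2G44140: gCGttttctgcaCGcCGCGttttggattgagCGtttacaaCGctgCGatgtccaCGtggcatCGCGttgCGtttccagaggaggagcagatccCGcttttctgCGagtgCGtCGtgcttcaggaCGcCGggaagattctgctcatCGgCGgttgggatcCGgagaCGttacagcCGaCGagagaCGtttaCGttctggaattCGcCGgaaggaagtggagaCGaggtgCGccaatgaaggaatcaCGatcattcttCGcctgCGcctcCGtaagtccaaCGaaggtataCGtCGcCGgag
AT1G14890: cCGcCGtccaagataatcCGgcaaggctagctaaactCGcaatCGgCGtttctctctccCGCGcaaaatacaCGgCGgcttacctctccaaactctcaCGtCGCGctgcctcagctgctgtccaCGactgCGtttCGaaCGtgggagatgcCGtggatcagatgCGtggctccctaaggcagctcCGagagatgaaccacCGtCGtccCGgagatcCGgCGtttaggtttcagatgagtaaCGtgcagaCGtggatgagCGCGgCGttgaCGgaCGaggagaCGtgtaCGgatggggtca
The last pair was chosen for its CG density, so its high CG count is no finding. The sequence says nothing of whether a CG is methylated.

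MBD5-only regions were far less often occupied by ACD15, ACD21 or MBD6 than regions called for both proteins. A region counted as occupied where a called peak overlapped it by at least 1 bp. In ACD15-FLAG, 115 of the 1894 MBD5-only regions held a peak in replicate 1, a share of 6.07% (95% exact binomial interval over regions 5.04 to 7.24), and 750 held one in replicate 2, or 39.6% (37.4 to 41.8). Over all nuclear regions of the list the same shares were 41.8% and 70.3%. In ACD21-FLAG, 227 held a peak in replicate 1, or 12.0% (10.6 to 13.5), beside 47.7% of all regions, and 37 in replicate 2, or 1.95% (1.38 to 2.68), beside 27.4%. The replicates thus differed as much as the proteins did, and the longer list of each pair held most of the calls. These intervals cover counting error over regions only, not the variation between plants.

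MBD6-RFP peaks were found at few members in either genotype. In wild type, 111 MBD5-only regions held a peak in replicate 1, or 5.86% (4.85 to 7.02), and 7 in replicate 2, or 0.370% (0.149 to 0.760). The shares of all regions were 24.7% and 7.7%. In acd15 acd21, 104 held a peak in replicate 1, or 5.49% (4.51 to 6.61), and 3 in replicate 2, or 0.158% (0.0327 to 0.462), against 16.2% and 2.7% of all regions. Every one of these shares lies below that of all regions in the same list.

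The share with a peak was lower in MBD5-only than in shared regions in 8 of 8 lists, by 30.6 percentage points on average (difference -30.6, SD 20.2 over lists). A two-sided exact sign-flip permutation test over the 8 lists gave p = 0.00781, the smallest it can give, and 0.0469 after Benjamini-Hochberg adjustment over 6 tests. The 4 RFP lists measure MBD6, whose parent call sets shared regions apart from members, so these lists are not independent of the rule. Differences within lists ran from -53.5 points in ACD21-FLAG replicate 1 to -3.30 points in acd15 acd21 replicate 2. With ACD15-FLAG replicate 2 left out, a setting chosen after the data were seen, the difference was -27.9 points in 7 of 7 lists, and the exact sign-flip p of 0.0156, the smallest for 7 lists, became 0.0781 on adjustment. With all lists kept to equal length the difference was -4.75 points, with the same exact sign-flip p of 0.00781 (adjusted 0.0469). Within the FLAG lists alone the difference was -48.0 points and within the RFP lists alone -13.1 points, with an exact p of 0.125 in each, the smallest for 4 lists.

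**Figure D1:**
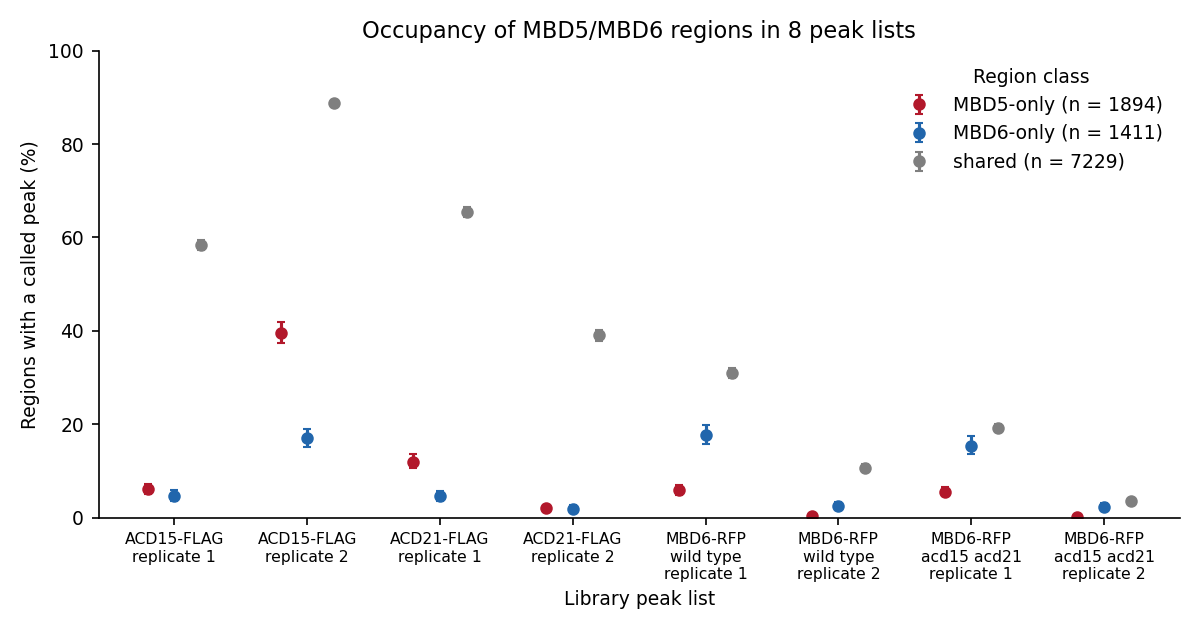
Share of MBD5-only, MBD6-only and shared regions (vertical axis, percent) that hold a called peak in each of the 8 library lists (horizontal axis); points are shares and bars are 95% exact binomial intervals over regions. The MBD5-only point lies below the shared point in every list, above the MBD6-only point in the 4 FLAG lists and below it in the 4 RFP lists.

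Against regions called for MBD6 alone, the sign of the difference was not the same in all lists, and no test of it passed after adjustment. MBD5-only regions held more peaks than MBD6-only regions in the 4 FLAG lists, by 1.47 and 22.7 points in ACD15-FLAG and by 7.45 and 0.04 points in ACD21-FLAG, replicate 1 first. They held fewer in the 4 RFP lists, with differences of -11.8 and -2.04 points in wild type and -9.89 and -2.04 points in acd15 acd21. The mean over all 8 lists was 0.73 points (SD 10.8), and the two-sided exact sign-flip test did not separate the classes (p = 0.914, adjusted 0.914). That mean was -2.40 points without ACD15-FLAG replicate 2 and -0.30 points with lists of equal length. The contrast between the FLAG and the RFP lists was 14.3 points, with no overlap between 4 and 4 lists. The RFP lists measure MBD6, whose call in the parent lists helps define both classes, so this contrast is not independent of the rule. A two-sided exact permutation test, added after the data were seen, gave p = 0.0286, the smallest possible for 4 against 4, and 0.0857 after adjustment, which does not pass 0.05. Without ACD15-FLAG replicate 2 the contrast was 9.42 points (exact permutation p = 0.0857, adjusted 0.214). The sign at ACD21-FLAG replicate 2 rests on 37 MBD5-only and 27 MBD6-only regions, and it turned at −log10 q of at least 5 (1.58% against 1.77%), at middle widths (2.42% against 3.07%) and over 1 kb from other classes (1.98% against 2.15%). With every list kept to its 404 highest peaks, both ACD21-FLAG lists were lower at MBD5-only regions (0.053% against 0.142%), and the contrast was 0.617 points. At this length no list reached more than 0.475% of members, so these signs rest on very few regions. The widest gap was in acd15 acd21 replicate 2, which has 404 regions and so lost none (0.158% against 2.20%).

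The class was not empty of MBD6 in the libraries of this series. A wild type MBD6-RFP peak lay on 117 MBD5-only regions, or 6.18%, beside 30% of all regions. At 1 member both wild type lists held a peak, beside 2.36% of all regions. "MBD5-only" is therefore the call status in the parent lists, and it is not a statement that MBD6 is absent.

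The merged lists placed ACD15 at more of these regions than ACD21, and this excess came from ACD15-FLAG replicate 2. The merged ACD15 list, the authors' union of both replicates, reached 757 MBD5-only regions, or 39.97% (37.8 to 42.2), beside 70.7% of all regions. The merged ACD21 list reached 228, or 12.0% (10.6 to 13.6), beside 47.9%. Both merged lists reached 185 members (9.77%, beside 46.6% of all regions), ACD15 alone 572, ACD21 alone 43 and neither 1094. Of all regions, 24% lay in the merged ACD15 list alone and 1.22% in the merged ACD21 list alone, and for the members these shares were 30.2% and 2.27%. With replicate 1 alone in place of the merged list, ACD15 reached 6.07% of members, and with replicate 2 alone ACD21 reached 1.95%.

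The mean share over replicates was 22.8% ± 23.7 for ACD15-FLAG and 6.97% ± 7.09 for ACD21-FLAG (SD, n = 2 each). The difference of 15.9 points was smaller than the SD within ACD15-FLAG, and the exact permutation test gave p = 0.667 (adjusted 0.8), where 2 against 2 libraries cannot go below 0.33. Without replicate 2 the difference was -5.91 points, so the order of the proteins turned, and without replicate 1 it was 37.6 points. With lists of equal length it was 0.053 points, between 0.106% of members in both ACD15-FLAG lists and 0.053% in both ACD21-FLAG lists.

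In each FLAG pair, most calls of the shorter replicate list were also in the longer one. Of the 115 members with a peak in ACD15-FLAG replicate 1, 93.9% had one in replicate 2, and 14.4% of the 750 in replicate 2 had one in replicate 1. Of the 37 members in ACD21-FLAG replicate 2, 97.3% were in replicate 1 as well, and 15.9% the other way. Between the proteins, 80.2% of the 227 members of ACD21-FLAG replicate 1 had a peak in ACD15-FLAG replicate 2, against 24.3% in reverse. Of the 37 members in ACD21-FLAG replicate 2, 36 were in ACD15-FLAG replicate 2, which is 97.3% of the one and 4.80% of the other. The remaining pairs involve ACD15-FLAG replicate 1. Of the 115 members in ACD15-FLAG replicate 1, 69 were in ACD21-FLAG replicate 1, which is 30.4% of the 227 there, and of the 37 in ACD21-FLAG replicate 2, 59.5% were in ACD15-FLAG replicate 1 (19.1% in reverse).

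Counted over the 4 FLAG lists, 1094 members had no peak, 574 had a peak in 1 list, 144 in 2, 61 in 3 and 21 in 4. At least 1 FLAG peak was thus found at 800 members, or 42.2%, beside 71.9% of all regions, and at least 1 RFP peak at 157, or 8.29%, beside 32.5%. The 21 members with a peak in all 4 are 1.11% of the class, beside 25.2% of all regions. ACD15-FLAG replicate 2 was the only FLAG list with a peak at 527 members (27.8%, beside 19.5% of all regions). At 273 members (14.4%, beside 52.4%) a FLAG list other than that one held a peak. No peak in any of the 8 lists was found at 1017 members, or 53.7%, beside 22.9% of all regions. Among MBD6-only regions 869 were without a peak, or 61.6%, and among shared regions 523, or 7.23%.

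Where a member did hold a peak, the peak mostly stood low in its list. Fold enrichment is a value that the authors' peak caller gave each peak, and it serves here only to describe peaks within a list. The median fold at the members was 1.93 and 2.17 in the ACD15-FLAG lists and 2.06 and 2.08 in the ACD21-FLAG lists, replicate 1 first. Percentiles rank peaks by −log10 q within a list, and the matching peaks stood at medians of 22.6, 30.2, 29.6 and 31.5. Peaks at shared regions stood at 57.4, 66.5, 59.0 and 55.4, and peaks at MBD6-only regions at 33.1, 23.9, 47.7 and 52.7. In the wild type RFP lists the members' peaks stood at percentiles 33.1 and 26.5, with median folds of 3.78 and 4.34. The acd15 acd21 replicate 1 list was the exception, with a median percentile of 65.5 over 104 members, beside 77.7 at shared regions. In all 8 lists the median percentile at members was under that at shared regions. Peaks at MBD6-only regions stood at 38.7 and 22.1 in the wild type RFP lists and at 59.6 and 37.9 in the acd15 acd21 lists.

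MBD5-only regions were narrow. Their width ran from 227 to 4164 bp with a median of 380 bp and quartiles of 288 and 661 bp, and together they covered 1026 kb. MBD6-only regions had a median of 361 bp and shared regions one of 1012 bp. A shared region joins a peak of each protein, so its width includes both. Because a wide region meets more peaks, occupancy was also read within bands of width.

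Within each band of width, the members stayed under the shared regions in every FLAG list. The exception was ACD21-FLAG replicate 2 up to 300 bp, with a peak at 2 of 551 members and 0 of 107 shared regions. Among regions above 300 and up to 500 bp, ACD15-FLAG replicate 1 held a peak at 8.57% of 700 members and at 40.5% of 1170 shared regions. In ACD15-FLAG replicate 2 the shares in that band were 50.9% and 84.0%, and in ACD21-FLAG replicate 1 they were 15.4% and 44.7%. Over 1000 bp, ACD15-FLAG replicate 2 held a peak at 46.3% of 229 members and 92.1% of 3660 shared regions. In wild type MBD6-RFP replicate 1 the share of members was 4.36% up to 300 bp, 4.00% above 300 and up to 500 bp, 7.49% above 500 and up to 1000 bp, and 12.2% over 1000 bp. Shared regions in that list went from 10.3% in the narrowest band to 39.4% in the widest. Restricting all classes to widths of 423 to 1433 bp, the middle of the whole list, left a difference to shared regions of -26.9 points (exact sign-flip p = 0.00781, adjusted 0.0469).

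**Figure D2:**
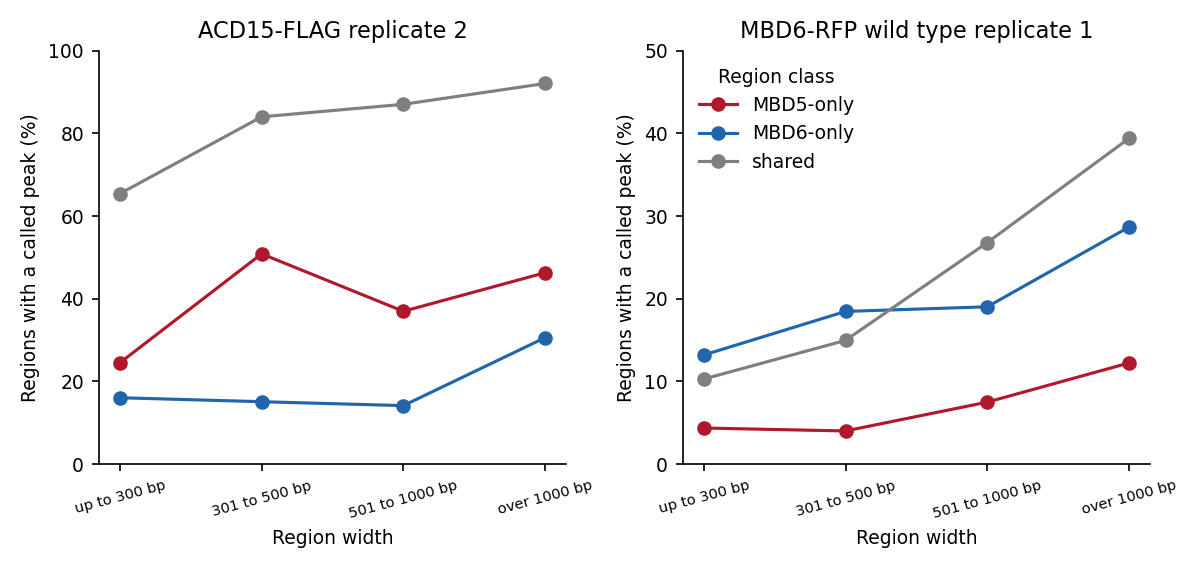
Share of regions with a called peak (vertical axis, percent) in 4 bands of region width (horizontal axis) for the 3 region classes, in ACD15-FLAG replicate 2 (left) and in wild type MBD6-RFP replicate 1 (right, with its own scale). MBD5-only regions lie under shared regions in every band of both lists, and in the right panel they also lie under MBD6-only regions.

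Members were not especially rich in CG. They held a median of 2.62 CG dinucleotides per 100 bp, like shared regions with 2.59 and below MBD6-only regions with 3.65. In the central 200 bp the median was 5 in MBD5-only and shared regions, 7 in MBD6-only regions and 4 in 200 bp windows of the genome. Their GC content, at a median of 37.3%, lay between shared regions (33.0%) and MBD6-only regions (42.3%), and this order was the same on 5 of 5 chromosomes. These are properties of the reference sequence, given without a test.

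**Figure D3:**
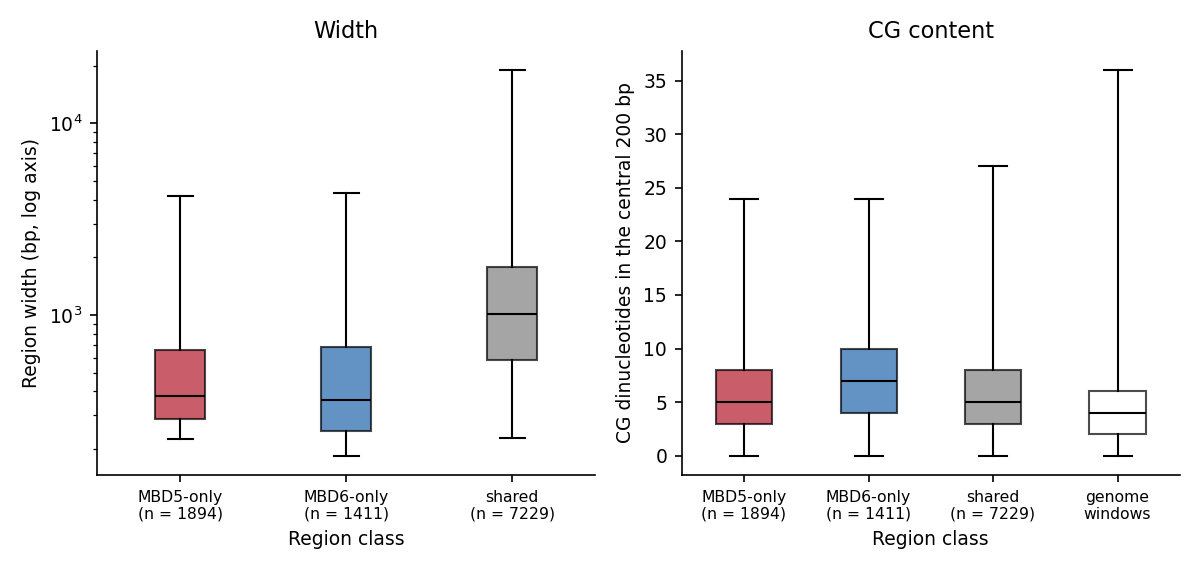
Width in bp on a log axis (left) and number of CG dinucleotides in the central 200 bp (right) for the 3 region classes, with 200 bp windows of the genome at the far right; boxes run from the first to the third quartile, the line is the median and whiskers reach the lowest and highest value. MBD5-only regions have a median width of 380 bp beside 1012 bp for shared regions, and the same median of 5 CG as shared regions.

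How occupancy varied with CG content depended on the list and on the class. In ACD15-FLAG replicate 2 the share of members with a peak was 52.6% where the central 200 bp held 0 to 2 CG, then 44.8% at 3 to 5, 32.2% at 6 to 9 and 27.4% at 10 or more. In ACD21-FLAG replicate 1 it was 8.19%, 9.12%, 14.4% and 18.1% over the same bands. In wild type MBD6-RFP replicate 1 it was 2.63%, 4.56%, 7.21% and 10.0%. The list that called most members thus had its calls at CG-poor members more often, and the other 2 had theirs more often at CG-rich members. Shared and MBD6-only regions had the same falling order in ACD15-FLAG replicate 2, with 93.3%, 91.4%, 86.2% and 83.4% of shared and 24.0%, 20.6%, 16.3% and 11.9% of MBD6-only regions. In ACD21-FLAG replicate 1 the MBD6-only share instead fell, from 6.67% to 3.40%, and the shared one went from 64.6% to 68.7%. Wild type MBD6-RFP replicate 1 was highest at 10 or more CG in both (36.0% of shared, 24.0% of MBD6-only regions). It was lowest there at 3 to 5 CG (28.5% and 12.1%). ACD15-FLAG replicate 1 showed no such order among the members, with 6.43%, 5.32%, 6.73% and 5.93%.

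The members lay inside genes more often than the rest of the list. The centres of 842 of 1894, or 44.5%, fell in a protein-coding gene, compared with 29.3% of MBD6-only and 19.0% of shared regions and with 54.1% of the bases of the nuclear genome. Promoters, the 1 kb upstream of a gene start, took 16.8% of members, 7.80% of MBD6-only and 22.5% of shared regions, against 13.7% of the genome. Pseudogenes, among which the annotation counts transposon genes, held 8.61% of members and 28.3% of MBD6-only regions, against 8.68% of the genome. The remaining 30.1% of members lay outside all of these, where the genome has 23.5%. These are counts, given without a test. The gene share of members was above that of both other classes on 5 of 5 chromosomes, from 39.6% on chromosome 2 to 47.2% on chromosome 1, and their pseudogene share was below both on 5 of 5. Gene-poor bins of 100 kb (less than 20% of bases in coding-gene exons) are 16.8% of all bins and held 22.9% of members, 52.8% of MBD6-only and 25.7% of shared regions.

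**Figure D4:**
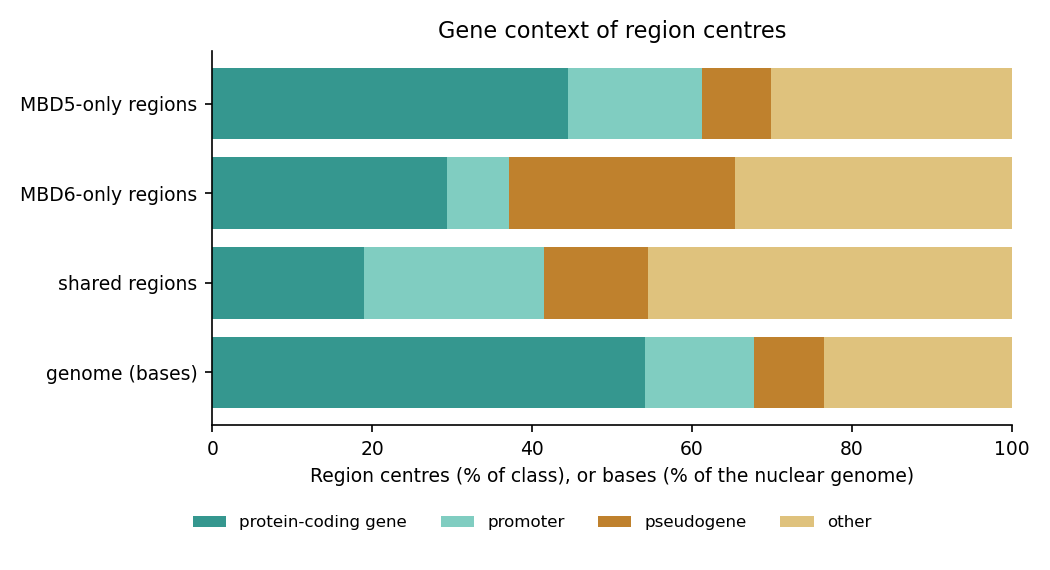
Share of region centres (horizontal axis, percent of each class) that fall in protein-coding genes, promoters of 1 kb, pseudogenes and other sequence, for the 3 region classes, with the share of nuclear bases in the lowest bar. Of the 3 classes, MBD5-only regions have the largest share in protein-coding genes (44.5%), and MBD6-only regions the largest in pseudogenes (28.3%).

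Inside genes the members, like regions of the other classes, were mostly exonic and lay mostly in the later part of the transcribed unit. Of the 842 members centred in genes, 635 fell in coding exons, 129 in introns and 78 in exons outside the coding sequence. Coding exons also held 308 of the 414 MBD6-only and 835 of the 1374 shared regions centred in genes. The coding share of all gene bases is not given here, so these counts have no genome background. Placed along their genes, 841 members in 827 genes lay at a median of 65.4% of the way from start to end. The first 20% of the gene held 6.06% of them and the final 20% held 27.8%. MBD6-only regions in genes had nearly the same median position, 65.0%, and shared regions one of 61.9% with 12.8% in the first 20%. The genes with a member had a median length of 2815 bp, beside 2078 bp for all protein-coding genes. Genes with an MBD6-only region had a median of 3213 bp and those with a shared region 2530.5 bp. A tRNA gene was overlapped by 9 members (0.475%, beside 0% of MBD6-only and 0.318% of shared regions). A miRNA gene was overlapped by 4 members (0.211%, beside 0.283% of MBD6-only and 0.650% of shared regions).

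The share with a peak varied between these contexts, and the order was not the same in the FLAG and RFP lists. In ACD15-FLAG replicate 2 the share with a peak was 64.6% of 319 promoter members, 54.7% of 570 members in other sequence, 30.1% of 163 in pseudogenes and 21.7% of 842 in genes. The other classes had the same order there, with 95.3%, 92.9%, 81.6% and 76.2% of shared and 44.5%, 22.1%, 11.5% and 8.70% of MBD6-only regions. Among the members in ACD21-FLAG replicate 1 it was 12.2%, 10.9%, 7.98% and 13.4%, with gene members highest. Wild type MBD6-RFP replicate 1 had its highest share of members in pseudogenes, 17.2%, followed by other sequence with 6.32%, genes with 4.75% and promoters with 2.19%. Shared and MBD6-only regions in that list were highest in other sequence (35.0% and 27.5%), with 33.5% and 21.8% in pseudogenes. Members in gene-poor bins were also called there more often, 10.9% against 4.38% elsewhere. Pseudogene members had the highest share in all 4 RFP lists, on 4 members in wild type replicate 2 and 1 in acd15 acd21 replicate 2. Pseudogenes also led at shared regions in every RFP list but wild type replicate 1, and at MBD6-only regions in both replicate 2 lists. The lead of promoter members in ACD15-FLAG replicate 2 was not seen in replicate 1, where they had 7.21% and members in other sequence 7.72%. Across chromosomes the shares in ACD15-FLAG replicate 2 kept to a range of 37.4% to 43.5%.

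Most members lay some distance from regions of the other classes, as did most regions of those classes. The members' median gap to the nearest shared region was 4639 bp, beside 4453 bp for MBD6-only regions. Within 1 kb of a region of another class lay 124 members, or 6.55%, beside 14.4% of MBD6-only and 3.51% of shared regions. At these 124 members, wild type MBD6-RFP replicate 1 held a peak in 11.3%, against 5.48% of the 1770 farther away. Among only the members over 1 kb from other classes the merged lists reached 39.2% for ACD15 and 12.2% for ACD21.

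The share of members with an MBD6-RFP peak was compared between the genotypes over 2 lists each, a number with which the test cannot reach 0.05. Wild type lists averaged 3.12% ± 3.88 and mutant lists 2.82% ± 3.77 (SD, n = 2 each). The difference of -0.29 points was smaller than the SD of either group, with -0.37 points between the replicate 1 lists and -0.21 between the replicate 2 lists (two-sided exact permutation p = 0.667, adjusted 0.8, smallest possible 0.33). The sign turned at −log10 q of at least 5 (0.026 points), at middle widths (0.135 points) and with lists of equal length (0.185 points). The ratio of mutant to wild type was 0.937 in the replicate 1 lists and 0.429 in those of replicate 2, the latter on 3 and 7 regions. At shared regions the same ratios were 0.617 and 0.325, and at MBD6-only regions 0.871 and 0.912. Relative to shared regions the members' share was higher in the mutant by 0.50 on the log2 scale, and the exact permutation test over 2 and 2 libraries gave p = 0.667 (adjusted 0.8). This log2 difference was 0.17 at −log10 q of at least 5, 0.88 at middle widths and 1.25 with lists of equal length. At equal length the RFP lists reached only 0.106% to 0.475% of members, so values in that setting rest on very few regions. With replicate lists this far apart, 5.86% and 0.370% of members in wild type, a change of either sign could go undetected.

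Single members did change their call between genotypes. A peak in both genotypes was found at 67 members (3.54%, beside 15.7% of all regions), in wild type alone at 50 (2.64%, beside 14.3% of all regions) and in acd15 acd21 alone at 40 (2.11%, beside 2.5%). The wild type replicate 1 and acd15 acd21 replicate 1 lists had 65 members in common, 58.6% of the 111 and 62.5% of the 104. The replicate 2 lists held only 7 members in wild type and 3 in the mutant, which caps what replicates could share. Of the 7, 1 was also in wild type replicate 1, and of the 3, 0 were in mutant replicate 1. Between the replicate 2 lists, 2 of the 3 mutant members were also in the wild type list. In genes, 40 members had a peak in wild type replicate 1 and 55 in acd15 acd21 replicate 1. In pseudogenes the counts were 28 and 17. As shares of the members called, genes made up 36.0% and 52.9% and pseudogenes 25.2% and 16.3%. Over all regions called in the same lists, genes made up 14.8% and 17.8% and pseudogenes 16.5% and 21.8%. This is 1 list of each genotype, with no test.

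Among the 21 members with a peak in all 4 FLAG lists, the 10 with the highest mean percentile are named here. The first was a region of 1487 bp on chromosome 1, 28514846 to 28516332, whose centre lies in an intron of AT1G75945, annotated as an uncharacterized protein gene. Its folds were 5.70 and 9.09 in ACD15-FLAG, 7.69 and 5.03 in ACD21-FLAG, 16.1 in wild type MBD6-RFP replicate 1 and 6.37 in acd15 acd21 replicate 1. It was occupied by all 3 tagged proteins, although its parent is the MBD5 list alone. The second, chr5:19829953-19830447, lies 808 bp upstream of LCR12, a gene for a small cysteine-rich protein of the defensin-like kind. Its folds were 4.60 and 7.56 in ACD15-FLAG, 5.50 and 3.83 in ACD21-FLAG, and 13.4 and 3.87 in the replicate 1 lists of MBD6-RFP in wild type and mutant. The third, chr1:7023370-7024703, is centred in an intron of AT1G20280, annotated as homeobox-leucine zipper-like, and had folds of 3.17, 5.64, 4.37 and 3.23 in the FLAG lists and no RFP peak.

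The other members of the 10 were found beside genes of several kinds. The region chr4:8794481-8794814 lies in the promoter of AT4G15390, annotated as an acyltransferase, with FLAG folds of 2.42 to 4.52. Another, 369 bp past the end of AT3G62528, also held RFP peaks, with folds of 7.18 in wild type and 5.32 in the mutant. Downstream of KNAT1, a homeobox gene of the shoot meristem, a region of 1991 bp had FLAG folds of 2.57 to 4.67 and RFP folds of 5.11 and 4.03. Regions lay downstream of COB, which encodes a protein needed for oriented cell expansion, upstream of GIS, a zinc-finger gene of trichome formation, in the promoter of DDF2, a transcription factor gene of the CBF/DREB1 family, and downstream of BLH4, a BEL1-like homeobox gene. In ACD15-FLAG replicate 2 the folds of these 4 ran from 4.71 at DDF2 to 5.64 at COB. Folds are not compared between lists here.

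**Figure D5:**
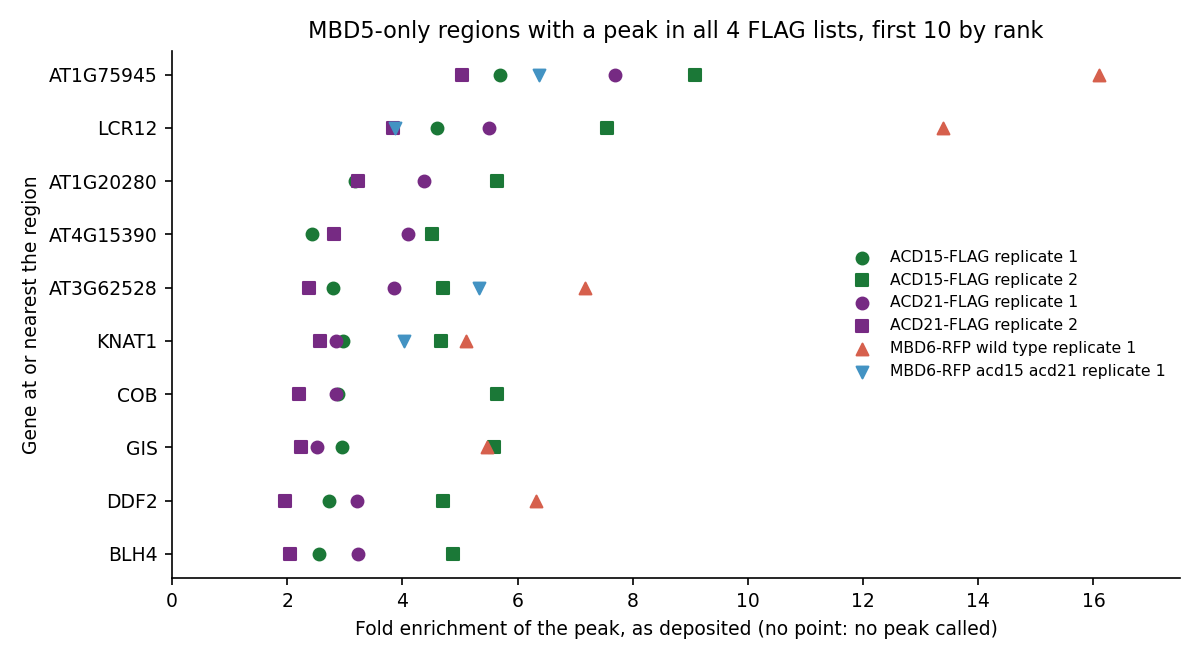
Fold enrichment as deposited (horizontal axis) of the peaks at the 10 highest-ranking MBD5-only regions with a peak in all 4 FLAG lists, 1 row per region named by its gene; no point means no peak called. The highest wild type MBD6-RFP points are those of AT1G75945 (16.1) and LCR12 (13.4), and 4 of the 10 rows have no RFP point. Folds are not compared between lists.

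Of the 117 members with a wild type MBD6-RFP peak, the region beside AT1G47885 was the one found in both replicates. It spans 1128 bp, chr1:17641604-17642731, and overlaps this gene, annotated as a ribonuclease inhibitor. Its folds were 5.39 and 7.60 in the wild type lists, 3.56 in acd15 acd21 replicate 1, 3.13 in ACD15-FLAG replicate 2 and 1.99 in ACD21-FLAG replicate 1. Next to the pseudogene AT5G31685 a region of 2516 bp, chr5:11655059-11657574, held 7.11 CG per 100 bp. Its fold was 9.67 in wild type replicate 2 and 2.03 in acd15 acd21 replicate 2, and a second member within that pseudogene had a fold of 5.18 in wild type replicate 2. The remaining regions of this ranking lay in a coding exon of AT5G07570, a glycine/proline-rich protein gene, with folds of 7.49 and 5.03 in the replicate 1 lists, and 5 bp from the pseudogene AT2G12700 and 63 bp from AT1G40123. Another had the pseudogene AT4G03800 as its nearest annotated gene, at 17707 bp. At these last 3 regions no FLAG list held a peak. Of the 10 regions in the ranking, 5 were named by a pseudogene, and 3 also stood among the 10 leading FLAG regions: AT1G75945, LCR12 and AT3G62528.

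Of the 40 members called in acd15 acd21 and not in wild type, 28 were centred in protein-coding genes (70%), beside 44.5% of all members. Of all 263 regions with that pattern, 36.1% were. All 5 named ones were in protein-coding genes, and all were called in the replicate 1 list. They lie in an intron of AT5G62440 (EMB514, fold 7.52), in coding exons of NTMC2T4, a lipid-binding protein gene (5.29), PMH2, which encodes a mitochondrial RNA helicase (4.95), and ATG18H, an autophagy gene (5.12), and in AT2G21230, a bZIP transcription factor gene (5.93). The region in NTMC2T4 had a peak in all 4 FLAG lists too, with folds of 1.75 to 2.71. PMH2 had one in ACD15-FLAG replicate 2, and the other 3 had none. As a call in 1 list without a replicate, these are descriptions of that library.

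Among the 648 members of at least 300 bp with no peak in any list, the 5 densest in CG were all in coding exons. They lie in AT2G44140, a peptidase gene of family C54, with 11.7 CG per 100 bp over 564 bp, and in AT1G14890, an invertase or pectin methylesterase inhibitor gene, with 10.8. Next came AT1G01300, an aspartyl protease gene, with 10.6, GT72B1, a glycosyltransferase gene, with 10.3, and AT1G23390, a kelch repeat gene, with 10.0. The median over all members was 2.62.

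Genes known for silencing by promoter methylation or for imprinting held no member. Of 15 such genes, including FWA, SDC, QQS and MEA, 0 had an MBD5-only region between 1 kb upstream of the start and the gene end, beside 5.36% of all 27444 protein-coding genes. Shared regions were found at 12 of the 15, beside 19.6%. Of 25 DNA methylation and silencing genes, 3 had a member, 1 an MBD6-only and 8 a shared region. Of 5 genes of the MBD5/MBD6 complex (MBD5, MBD6, ACD15, ACD21 and SLN), 0 had a member, and of 15 floral meristem and organ identity genes 0 had one. An MBD6-only region was found at 1 complex gene, beside 2.31% of protein-coding genes. With lists this short and a background of 5.36%, a count of 0 members is near the background.

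The 3 silencing genes with a member were NRPD1, NRPD2 and DCL3. NRPD1 encodes the largest subunit of RNA polymerase IV, and its member of 253 bp, chr1:23362894-23363146, lies 305 bp upstream of the start and had a peak in ACD15-FLAG replicate 2 alone (fold 2.43). NRPD2 encodes the second-largest subunit, shared by polymerases IV and V, and its member, 266 bp upstream at chr3:8574475-8574821, had no peak in any list. DCL3 cuts the precursors of the small RNAs, and its member, chr3:15760573-15761233, overlaps the end of the gene. This region is centred just beyond DCL3 in an exon of the convergent AT3G43930. It had folds of 4.22 in wild type MBD6-RFP replicate 1 and 2.67 in acd15 acd21 replicate 1, and no FLAG peak.

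A set of members on chromosome 2 matched the mitochondrial genome. Of the 1894 members, 16 (0.845%) shared at least 50% of their 50-base words with it, all on chromosome 2, compared with 1 of 1411 MBD6-only and 2 of 7229 shared regions. The bin from 3300001 to 3400000 on that chromosome held 10 of them and no other member. Chromosome 2 of Arabidopsis is known to carry a large insertion of mitochondrial DNA, and reads from either copy cannot be told apart in such a stretch. None of the 16 had a peak in any of the 8 lists, and without them the share with a peak in ACD15-FLAG replicate 2 was 39.9% in place of 39.6%. No member matched the chloroplast genome at that level.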

How the data were processed

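The submitters' processing notes name MACS2 2.1.0, Bowtie2, HOMER, Trim Galore, deepTools 3.0.2 and Picard, and the genome TAIR10. Roles and settings were not given in the sources used here. Peaks were called per library. The authors deposited for each peak a score, a fold enrichment (a ratio against background, as the peak caller wrote it) and −log10 of the p-value and of the q-value. The MBD5/MBD6 list and both merged lists are unions of peaks, per the file headers, and give region borders. Per the file names, peaks of the transgene-free control were removed from the FLAG lists, and unspecifically enriched regions from the RFP lists. Percentiles rank the peaks within a list by −log10 of the q-value. Depth is unknown from peak lists, so a region without a peak is one not called. Columns of other samples numbered 0.

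Entries with the same borders were joined. Borders of the MBD5/MBD6 list were read as written, and library peaks as 1-based. Overlap meant at least 1 bp. The reference was a TAIR10.1 copy, whose nuclear chromosome lengths no peak exceeded; its annotation of 37899 genes has no transposon features. Context is that of the region centre, in the order gene, pseudogene, promoter, other. Tests were exact permutation tests over libraries at 0.05, adjusted over 6 (Benjamini-Hochberg), or over the tests that an alternative setting allowed where these were fewer, in Python 3.11.15 with numpy 2.4.6, pandas 2.3.3 and scipy 1.17.1. The overlap and test functions were tested on simulated data. Intervals are exact binomial at 95%. The members and lists were chosen with earlier results of these data known.

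Named regions include members with a peak in all 4 FLAG lists (the 10 highest by mean percentile of −log10 q). Others have a peak in a wild type RFP list (10, those in both replicates first). Further ones have a peak in an acd15 acd21 RFP list and no wild type one (5). Members in no list and at least 300 bp wide were named by CG density (the 5 densest). Members at genes of 4 lists (60 genes) were also named. Alternatives tried were an overlap of 50%, −log10 q of at least 5, the summit inside the region, middle widths, lists of equal length, members over 1 kb from other classes, each replicate left out and the replicate block, and, added after the data were seen, FLAG or RFP lists alone and ACD15-FLAG replicate 2 left out.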

Additional observations from a re-analysis of the deposited data

Results flagged for a closer look

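The MBD5/MBD6 list holds 32 regions on the mitochondrial genome, which were left out of the comparisons, and all 32 have the MBD5 list as their only parent. Their median width is 1114.5 bp and they cover 55.2 kb. No control values are given here for the parent lists, and the cause was not tested.

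The difference between MBD5-only and MBD6-only regions changed sign between the kinds of library, with all 4 FLAG lists higher at MBD5-only regions and all 4 RFP lists lower. The contrast was 14.3 percentage points (exact permutation p = 0.0286, adjusted 0.0857). It was 0.617 points with lists of equal length, where no list reached more than 0.475% of members. Both ACD21-FLAG lists were then lower at MBD5-only regions (0.053% against 0.142%). ACD21-FLAG replicate 2 was also lower there at −log10 q of at least 5, at middle widths and over 1 kb from other classes. The contrast does not pass 0.05 after adjustment, and tag, protein and batch cannot be told apart. It is also not independent of the rule, as the RFP lists measure MBD6, whose parent call helps define both classes.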

How the results depend on the processing

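The difference to shared regions kept its direction under every alternative run. It no longer passed 0.05 in settings with fewer lists: -27.9 points without ACD15-FLAG replicate 2, -48.0 with FLAG lists alone, -13.1 with RFP lists alone, and between -36.2 and -25.0 with each replicate number left out. In each of these the exact sign-flip p was the smallest possible, 0.0156 for 7 lists and 0.125 for 4. No outcome with 4 lists could have passed. With each list kept to its 404 highest peaks the difference to shared regions was -4.75 points, and no list reached more than 0.475% of members. The difference to MBD6-only regions changed sign to -0.30 points with equal list lengths, -2.40 without ACD15-FLAG replicate 2 and -6.44 with RFP lists alone, and ran from -3.19 to 4.66 with each replicate number left out. The genotype difference changed sign to 0.026 points at −log10 q of at least 5, 0.135 at middle widths and 0.185 at equal list lengths. The difference of ACD15-FLAG to ACD21-FLAG ran from -5.91 to 37.6 points with each replicate left out and was 0.053 at equal list lengths, where the contrast of FLAG to RFP lists was 0.617 points. The merged ACD15 share was 6.07% without replicate 2 and 39.6% without replicate 1. The merged ACD21 share was 14.9% at middle widths, 1.95% without replicate 1 and 12.0% without replicate 2. The cause of these changes was not tested.

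With the replicate number as a replicate block, the exact sign-flip p was 0.5 for the genotype difference (-0.29 points), 1 for ACD15-FLAG against ACD21-FLAG (15.9 points) and 0.5 for the genotype effect relative to shared regions (0.50 on the log2 scale), where 2 pairs cannot go below 0.5, and no call changed. Replicate differences of same-numbered libraries correlated over regions at -0.088 (FLAG) and 0.508 (RFP), and with 2 pairs, and no label that ties a number to shared material, the numbers were not taken as pairs.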

Other observations

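The densest 100 kb bin for MBD5-only regions was at 14300001 to 14400000 on chromosome 5, with 12 members beside 13 shared and 0 MBD6-only regions. In it, ACD15-FLAG replicate 2 held a peak at 6 of the 12, ACD21-FLAG replicate 1 at 3 and no RFP list at any. MBD5-only regions were otherwise spread over 898 of 1193 bins, at 14.6 to 18.7 per Mb by chromosome, with the highest density on chromosome 2. Shared regions were also densest there (70.8 per Mb), and MBD6-only regions on chromosome 4 (15.8 per Mb). The count on chromosome 2 includes all 16 members that matched the mitochondrial genome.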
